A study of Homo sapiens and Mus musculus with 41 samples.

Results

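HCC1954 is a human breast carcinoma line with high HER2, and the comparison described here sets its intermediate stage derivative (Int, 2 libraries) against the line labelled as its parent (Par, 3 libraries). These are 5 of the 41 RNA libraries of a series on leptomeningeal metastasis, and 15561 of the 23368 genes in the HCC1954 table were tested because they had a normalised count of at least 10 in at least 2 of the table's 10 libraries. All groups carry green fluorescent protein. Derivative cells had been washed out of the space around the mouse brain and then cultured and passaged in RPMI with serum, so the comparison is between cultured cells and not between cells in the animal. Par libraries are described as technical replicates, and those of the derivatives as partly biological and partly technical, with no key to which. A p-value here speaks for the spread among these particular libraries, which may be technical. The leptomeningeal derivative (Lep, 3 libraries) and the brain metastatic derivative (BrM, 2 libraries) shared the fit and are given as levels beside Int.

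The unit is the normalised count, a read count after division by the size factor of its library. Log2 fold changes are Int minus Par on the log2(value + 1) scale, given ± SE, which understates changes of low genes. A gene was called when its limma adjusted p was below 0.05 and its fold change at least 2. Levels are given for each library in order of replicate number, and levels of PC9, another line of the series, are means of 3 libraries from a table normalised separately.

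HER2, encoded by ERBB2, is a receptor tyrosine kinase that drives growth of tumours in which the gene is amplified together with its neighbours. Cells in the leptomeninges live in cerebrospinal fluid, which is poor in protein, nutrients and iron. Antioxidant enzymes under the transcription factor NRF2, squamous differentiation genes and cytokines under NF-kB are programmes in which carcinoma lines are known to differ.

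Recovered reads ran from 25330801 to 30335839 in the Par libraries and were 67367833 and 67210373 in the Int libraries. Pairs of Par libraries differed by a chi-square per degree of freedom of 1.5 to 1.82, whereas the 2 Int libraries gave 18.1. The chi-square was taken on raw reads and rises with depth where libraries differ beyond counting error. The Int and Par figures are therefore not at like depth. Epithelial adhesion genes were abundant in both groups, with EPCAM at 10110, 10420 and 10390 in Par and at 9161 and 8567 in Int, and CDH1 at 21450, 21310 and 21800 in Par and at 24980 and 23150 in Int. Of the 11 epithelial tumour cell markers 2 were higher in Int, ERBB2 and GRB7, and 1 was lower, KRT19. Of the 16 macrophage and microglia markers 6 were tested. Of these 4 were lower and 1 higher in Int, with 2 higher under quantile normalisation. Choroid plexus and ependymal markers had 3 of 6 lower and 0 higher (1 under quantile normalisation). Endothelial markers had 2 of 8 lower and 2 higher, and lymphocyte markers 1 of 2 lower. Meningeal fibroblast and pericyte markers had 1 of 7 higher (2 under quantile normalisation). Neural and glial markers had 1 of 6 lower and 1 higher (0 and 2 under quantile normalisation). Over all genes tested, 14.6% were lower and 6.6% higher.

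One measurement bears on every result that follows. The libraries labelled HCC1954 Par carried genes that the 3 derivatives lacked, at about the level at which PC9 Par expressed them. PC9 is a human lung adenocarcinoma line. Among the 177 genes with a mean of at most 10 in Int, Lep and BrM and of at least 100 in PC9 Par, the HCC1954 Par level was 0.838 of the PC9 Par level at the median (quartiles 0.588 and 1.06). The 3 Par libraries taken singly gave 0.817, 0.832 and 0.819. With MDA-MB-231 Par, the parental line of another breast model, in place of PC9 Par, the same ratio was 0.0121 over 415 genes. Conversely, 266 genes had a mean of at least 100 in Int and of at most 10 in PC9 Par. Over these the HCC1954 Par level was 0.378 of the Int level at the median (quartiles 0.241 and 0.472). That is a log2 difference of 1.40 with quartiles of 1.08 and 2.05. With MDA-MB-231 Par in place of PC9 Par, this ratio was 0.627 over 412 genes (quartiles 0.385 and 1.04). The 266 and the 412 genes were all chosen for a high Int level.

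Single genes, picked after their values were seen, show the pattern. NRCAM, a neural adhesion molecule, stood at 2312, 2422 and 2385 in Par and at 3.69 and 2.62 in Int, and was at 2370 in PC9 Par. NR0B1, an orphan nuclear receptor, stood at 1700, 1706 and 1693 in Par and at 1.05 and 1.57 in Int, and was at 1790 in PC9 Par. ZNF549, a zinc finger gene, stood at 499, 571 and 510 in Par and at 0 and 0.524 in Int, and was at 527 in PC9 Par. In each, the HCC1954 Par libraries lay close to the PC9 Par mean, and Int lay near 0.

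Of the 1027 genes called higher in Int, 953 (92.8%) had an HCC1954 Par mean between those of Int and PC9 Par. The same held for 779 (34.2%) of the 2279 called lower and for 7325 (59.8%) of the 12255 not called. With MDA-MB-231 Par in place of PC9 Par, the shares were 54.9% of those called higher, 38.3% of those called lower and 45.7% of those not called. Allowing a 2-fold margin around the span between Int and PC9 Par left 15 genes called higher and 477 called lower outside it. These counts were added after the data were seen. Whether the libraries labelled Par hold RNA of PC9 cells was not tested. In bulk RNA, fewer cells of a type and less RNA per cell cannot be told apart, and a difference between Int and Par cannot be told apart here from the content of the Par libraries. The PC9 Par level is therefore given beside most of the genes described below, and "Par" alone means the libraries labelled HCC1954 Par.

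**Figure D1:**
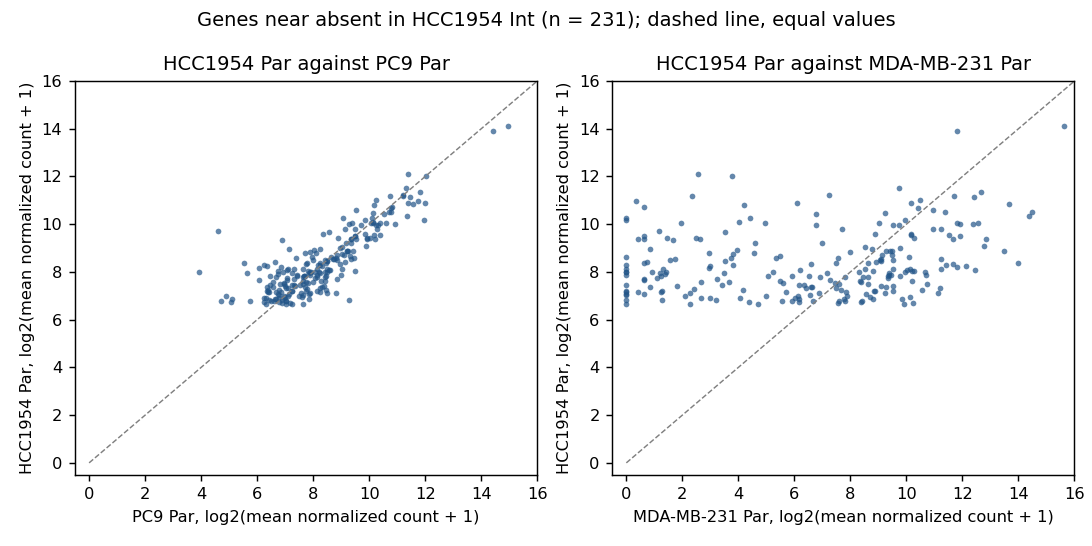
Mean normalised counts, as log2(mean + 1), of the 231 genes near absent in HCC1954 Int (each point, 1 gene), with HCC1954 Par set against PC9 Par in the left panel and against MDA-MB-231 Par in the right panel. The dashed line marks equal values; points follow it for PC9 (r = 0.84) and scatter for MDA-MB-231 (r = 0.23).

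The 231 genes in that plot had a Par mean of at least 100 and an Int mean of at most 10. Across them the log2 levels of HCC1954 Par and PC9 Par gave r = 0.84, against 0.23 with MDA-MB-231 Par. These are descriptions across genes, which share libraries and are not independent replicates. PC9 Par reached a mean of at least 100 in 199 of the 231 (86.1%), beside 70.9% of all genes tested. It stood at or under 10 in 0 of the 231, beside 1836 of the 15561 tested. The 231 were chosen for a Par mean of at least 100 and the genes tested were not, so these shares do not compare like with like.

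More genes were lower than higher in Int. Of the 15561 tested, 1027 were called higher (6.6%) and 2279 lower (14.6%), together 21.2%. On the recovered reads edgeR called 6.43% higher and 15.1% lower (21.6% in all) and DESeq2 6.17% and 14.5% (20.6% in all). Keeping genes whose higher group averaged 100 or more, 582 of 12083 were higher (4.82%) and 1295 lower (10.7%). Large differences were nearly all downward: 18 of these more abundant genes were at least 16-fold higher and 296 at least 16-fold lower, and 0 were at least 128-fold higher against 118 lower. The share of calls that were higher was 25.2% where the mean over the 10 libraries was under 30 and 57.7% where it was 3000 or more. Quantile normalisation turned the split to 1968 higher and 1649 lower (54.4% higher, in place of 31.1%) and moved the median log2 fold change of all genes from 0.01 to 0.12.

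**Figure D2:**
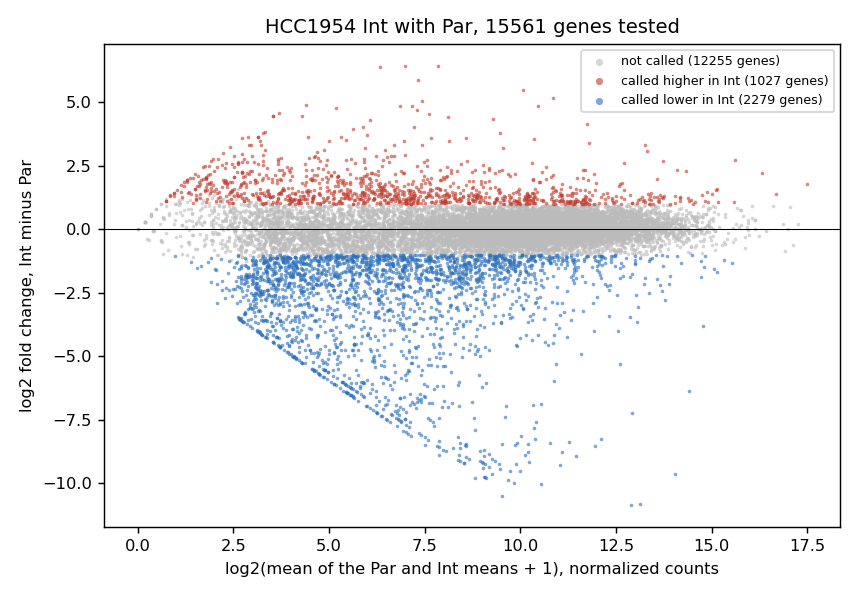
Log2 fold change of Int minus Par (vertical axis) against the level of each gene on a log2 scale (horizontal axis) for the 15561 genes tested, with called genes in colour. The downward side extends farther than the upward side, and calls thin out towards high levels.

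Near absence marked 231 genes in Int and 10 in Par. The median of the 231 was 263 in Par, 1.31 in Int, 2.22 in Lep and 2.34 in BrM. Lep and BrM were both also at or under 10 in 163 of them (70.6%), beside 1.41% of all tested genes with a Par mean of at least 100. In 22 of them neither Int library had a read. CBR1, a carbonyl reductase, was among these, with 1280, 1254 and 1155 reads in Par, and was at least 933-fold lower in Int when 3 reads per library are taken as the limit of a count of 0. HDGFRP3 was at least 568-fold lower on the same basis.

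In the 12 genes with the largest downward changes, the Par mean was within 2-fold of that of PC9 Par. LDHB, the lactate dehydrogenase subunit that favours use of lactate, was at 17460, 18270 and 17860 in Par and at 11.1 and 7.34 in Int, with 31900 in PC9 Par (log2 fold change -10.80 ± 0.53). WFDC2, a small secreted protein of epithelia, was at 1853, 1748 and 1838 in Par and at 1.05 and 0.524 in Int, with 1160 in PC9 Par. None of these groups overlapped, and the Int libraries lay near 0. TUSC3, part of the oligosaccharyltransferase complex, was at 1628, 1581 and 1709 in Par and at 1.05 and 0.524 in Int, with 1780 in PC9 Par. RNF26, a ubiquitin ligase, was at 1018, 1075 and 1103 in Par and at 0 and 0.524 in Int, with 1330 in PC9 Par. TMX3, a disulphide isomerase, was at 987, 1068 and 1138 in Par and at 0 and 0.524 in Int, with 1060 in PC9 Par. Int again lay at most 2 reads from 0 in these 3 genes. In Lep, WFDC2 stood at 82.7, whereas TUSC3 was listed at 0 in Lep and BrM.

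Upward, most of the largest changes were in genes with almost no signal in PC9 Par. LRRN1, a leucine-rich repeat membrane protein of neurons, was at 3.29, 8.29 and 2.63 in Par and at 491 and 423 in Int (log2 fold change 6.44 ± 0.33, limma adjusted p = 1.1e-09), and was at 0.45 in PC9 Par. Its mean was 580 in Lep and 10.1 in BrM. Fibrinogen chains, clotting proteins made mainly by the liver, were higher together. FGB was at 79, 116 and 108 in Par and at 3447 and 3771 in Int, and FGG at 48.3, 45 and 43.5 in Par and at 2135 and 2016 in Int, with PC9 Par means of 0 and 1.67. LBP, an acute-phase protein that binds bacterial lipopolysaccharide, was at 79, 83 and 119 in Par and at 2919 and 2551 in Int, with 2.53 in PC9 Par, and had a mean of 10600 in BrM. SERPINA3, another acute-phase protein, named after its values were seen, was at 364, 340 and 366 in Par and at 7750 and 5174 in Int, with 16 in PC9 Par. The log2 fold changes were 5.16 ± 0.13 for FGB, 4.88 ± 0.15 for LBP and 4.15 ± 0.14 for SERPINA3, and no library of Par overlapped with Int in any of them.

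CYP1A1, a detoxifying enzyme induced through the aryl hydrocarbon receptor, was at 5.49, 13 and 9.22 in Par and at 250 and 416 in Int, with 75.5 in PC9 Par, so its Par level lay below both other groups. OLFM4, a secreted protein of gut and gland stem cells, was at 4.39, 8.29 and 7.91 in Par and at 224 and 224 in Int, with a mean of 17900 in Lep and 49 in BrM, and was listed at 0 in PC9 Par. SOX11, a transcription factor of neural progenitors, was at 9.87, 11.8 and 5.27 in Par and at 321 and 236 in Int, with 2950 in Lep and 2.99 in BrM, and was at 0.409 in PC9 Par. Both were far higher in Lep than in Int and low in BrM. HSD17B2, an enzyme that inactivates oestradiol, was at 9.87, 21.3 and 15.8 in Par and at 341 and 405 in Int, and was listed at 0 in PC9 Par. AASS, an enzyme of lysine breakdown, was at 4.39, 5.92 and 2.63 in Par and at 219 and 413 in Int, with 0.407 in PC9 Par.

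The antioxidant list went 1 way, while 14.6% of all genes tested were lower and 6.6% higher. Of 37 tested regulators and targets of NRF2, 20 were lower in Int and 0 higher, with a median log2 fold change of -1.18 beside 0.01 over all genes. In 12 of the 20 the Par mean lay between those of Int and PC9 Par, and 1 of the 20 lay more than 2-fold outside that span. AKR1B1, an aldose reductase, was at 33880, 32790 and 33750 in Par and at 45.8 and 36.7 in Int, with 51100 in PC9 Par. AKR1B10, a related reductase, was at 50140, 54350 and 51480 in Par and at 3817 and 3595 in Int, with 58400 in PC9 Par. NQO1, a quinone reductase used as a readout of NRF2, was at 50460, 51880 and 50930 in Par and at 17590 and 17490 in Int (-1.54 ± 0.04), with 44300 in PC9 Par. The groups did not overlap in any of them, and NQO1 kept a high level in Int. TXNRD1, thioredoxin reductase, was at 52540, 56700 and 54850 in Par and at 17710 and 16320 in Int (-1.68 ± 0.04), with 62800 in PC9 Par. NFE2L2, the gene for NRF2 itself, did not pass the fold threshold (0.08 ± 0.04), nor did its inhibitor KEAP1 (-0.96 ± 0.06).

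The subunits of the enzyme that starts glutathione synthesis parted. GCLM, the regulatory subunit, was at 15190, 15980 and 15410 in Par and at 3580 and 3482 in Int (-2.14 ± 0.04), with 8410 in PC9 Par. GCLC, the catalytic subunit, was at 8597, 8504 and 8966 in Par and at 13390 and 11630 in Int (0.52 ± 0.05, below the fold threshold), with 1640 in PC9 Par. The first was lower in both Int libraries and the second was not. AKR1C genes, reductases of steroids that lie side by side, were lower as a run of 5 with a median of -2.77. AKR1C1 was at 41920, 43440 and 41800 in Par and at 12000 and 11430 in Int, with 57800 in PC9 Par. AKR1C3 was at 24000, 25280 and 24430 in Par and at 3713 and 3488 in Int, with 26800 in PC9 Par. These genes are near-identical in sequence, so reads may have been split between them.

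**Figure D3:**
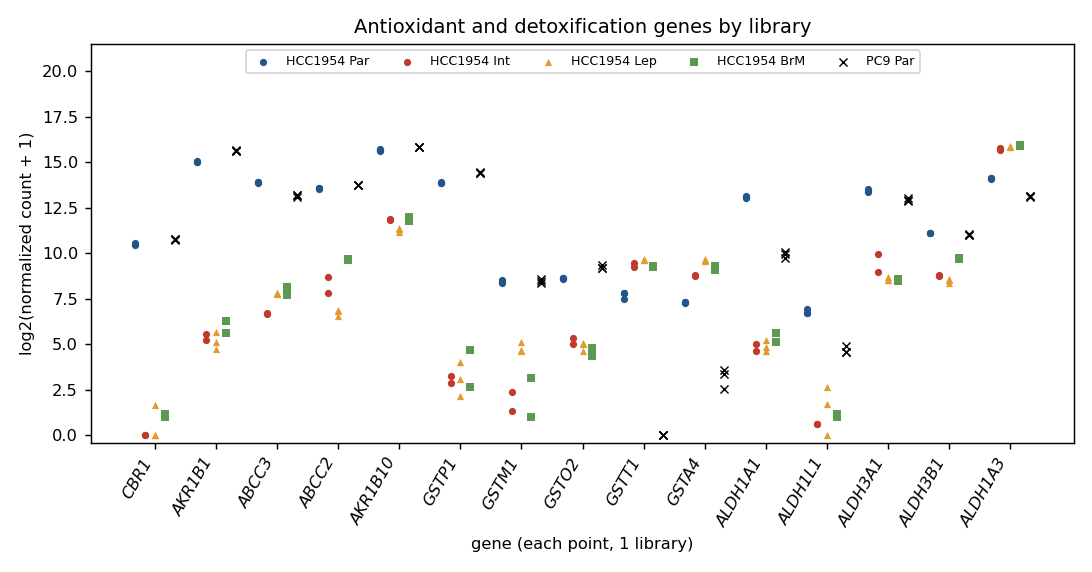
Normalised counts on a log2(value + 1) scale for named antioxidant and detoxifying genes in each HCC1954 library (circles for Par and Int, triangles for Lep, squares for BrM) and in the 3 PC9 Par libraries (crosses). For GSTP1, CBR1 and AKR1B1 the Par points lie near the crosses and Int lies with Lep and BrM far below.

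The bases before the starts of GSTP1, a glutathione transferase, and CBR1 are shown because these were the most reduced transferase and reductase, and both hold a match to the antioxidant response element that NRF2 binds. Each is the 250 bases before the start annotated in RefSeq (GRCh38.p14), 5′ to 3′ on the gene's strand, with matches to TGACNNNGC on either strand in capitals. GSTP1 lies at chr11:67583562-67583811 on the plus strand, and CBR1 at chr21:36069774-36070023 on the plus strand.
GSTP1: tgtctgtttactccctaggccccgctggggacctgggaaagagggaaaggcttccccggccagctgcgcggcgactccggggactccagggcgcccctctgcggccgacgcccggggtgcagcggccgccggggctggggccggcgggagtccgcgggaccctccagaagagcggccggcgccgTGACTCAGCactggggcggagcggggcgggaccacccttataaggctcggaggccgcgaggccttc
CBR1: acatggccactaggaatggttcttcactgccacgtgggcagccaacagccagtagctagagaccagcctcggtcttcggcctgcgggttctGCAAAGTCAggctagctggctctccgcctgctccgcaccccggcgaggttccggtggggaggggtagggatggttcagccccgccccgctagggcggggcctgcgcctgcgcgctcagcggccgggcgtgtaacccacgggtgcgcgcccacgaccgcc
The match begins 66 bases before the start of GSTP1 and 159 bases before that of CBR1. The windows hold 28 and 23 CpG dinucleotides. Of 35116 promoter windows of this length 10.9% hold the motif, so a match is a description of the letters only. The window of GCLM holds 1 match too, and that of NQO1 holds 0. GSTP1 was at 15160, 15670 and 14940 in Par and at 8.43 and 6.29 in Int, with 22200 in PC9 Par.

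Of 17 tested glutathione transferases, enzymes that couple glutathione to toxic compounds, 6 were lower and 3 higher, beside 14.6% and 6.6% of all genes. GSTM1 was at 332, 370 and 344 in Par and at 4.21 and 1.57 in Int, with 358 in PC9 Par. GSTT1 went the other way, at 223, 223 and 178 in Par and at 615 and 701 in Int (1.66 ± 0.10), and was listed at 0 in PC9 Par. GSTA4 was at 157, 152 and 158 in Par and at 454 and 424 in Int (1.49 ± 0.08), with 8.46 in PC9 Par.

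Of 19 aldehyde dehydrogenases 7 were lower and 1 higher, the latter count being 3 under quantile normalisation and 2 without Int library 1 or Par library 3. ALDH1A1, a retinal dehydrogenase used as a stem cell marker, had a Par level above both other groups, at 9091, 8392 and 8867 in Par and at 31.1 and 24.1 in Int (-8.27 ± 0.18), with 972 in PC9 Par. ALDH1A3, a relative, was higher in Int, at 18210, 17950 and 17240 in Par and at 55680 and 52140 in Int (1.60 ± 0.04), with 9030 in PC9 Par. Of 27 ABC transporters, pumps for drugs and lipids, 8 were lower and 2 higher, with 0 higher without Int library 2. Over all genes tested 14.6% were lower and 6.6% higher, and the higher ABC transporters were near the latter share. ABCC3, an exporter of conjugates, was at 15250, 15140 and 15490 in Par and at 101 and 103 in Int, with 9290 in PC9 Par. ABCA4, a retinoid transporter, was at 1339, 1306 and 1368 in Par and at 125 and 83.4 in Int, with 249 in PC9 Par.

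Many other genes had, like ALDH1A1, a Par level well above both Int and PC9 Par. MUC16, the mucin that carries CA125, was at 16080, 15070 and 15570 in Par and at 1273 and 1227 in Int (-3.64 ± 0.05), with 2830 in PC9 Par and 10000 in BrM. MUC5B, a gel-forming mucin, was at 9865, 8201 and 9704 in Par and at 874 and 861 in Int, with 701 in PC9 Par. IGFBP5, which binds insulin-like growth factors, was at 2550, 2358 and 2347 in Par and at 470 and 597 in Int, with 66.2 in PC9 Par. Par stood above both other groups in all 3. PTGIS, prostacyclin synthase, was at 280, 248 and 246 in Par and at 6.32 and 3.15 in Int, with 14.3 in PC9 Par. Among called genes with separated groups and a mean of at least 100, 195 lower and 4 higher ones lay more than 2-fold outside the span between Int and PC9 Par. IGFBP5 and PTGIS were picked from these after their values were seen.

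The squamous list had the most members higher in Int, while 6.6% of all genes tested were higher and 14.6% lower. Of 30 tested genes of the cornified envelope and squamous differentiation, 17 were higher and 1 lower, with a median of 1.14, or 1.05 with genes without reads in a group set to their bound. In 14 of the 18 called members the Par mean lay between those of Int and PC9 Par, and 1 of the 17 higher ones lay more than 2-fold outside that span. The lower count was 0 to 2 when single libraries were left out. SERPINB4, a squamous cell carcinoma antigen, was at 1768, 1747 and 1747 in Par and at 16360 and 19260 in Int (3.34 ± 0.07), with 15.4 in PC9 Par. SERPINB3, its close copy with which reads may be shared, was at 3683, 3391 and 3662 in Par and at 21000 and 26090 in Int (2.71 ± 0.08), with 33.6 in PC9 Par. Both genes had separated groups. TP63, the master factor of squamous and basal cells, stayed below the fold threshold, at 8215, 7961 and 8444 in Par and at 12160 and 15650 in Int (0.75 ± 0.08), with 37 in PC9 Par.

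Small proline-rich proteins, which are cross-linked into the cornified envelope, lie in a cluster on chromosome 1, where 9 neighbouring tested genes from SPRR1A to PGLYRP3 were all higher with a median of 1.66. SPRR2A was at 109, 113 and 102 in Par and at 470 and 598 in Int (2.29 ± 0.10), with 0.818 in PC9 Par, and had a mean of 2650 in Lep. SPRR1B was at 104, 107 and 75.1 in Par and at 442 and 528 in Int (2.35 ± 0.16), with 165 in PC9 Par, so its Par level lay below both. Genes of the cluster are similar in sequence, and reads may have been split between them.

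Promoters of SPRR1B and SPRR2A are shown because these were the 2 cluster members named among the largest changes of the list. They are the 250 bases before the RefSeq start (GRCh38.p14), with capitals marking TGANTCA, a site of the AP-1 factors, searched on both strands. SPRR1B lies at chr1:153030953-153031202 on the plus strand, and SPRR2A at chr1:153057513-153057762 on the minus strand.
SPRR1B: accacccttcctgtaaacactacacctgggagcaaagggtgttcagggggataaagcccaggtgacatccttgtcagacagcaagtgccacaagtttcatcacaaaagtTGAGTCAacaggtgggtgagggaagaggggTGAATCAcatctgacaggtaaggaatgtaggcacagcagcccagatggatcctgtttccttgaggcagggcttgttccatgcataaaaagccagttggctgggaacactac
SPRR2A: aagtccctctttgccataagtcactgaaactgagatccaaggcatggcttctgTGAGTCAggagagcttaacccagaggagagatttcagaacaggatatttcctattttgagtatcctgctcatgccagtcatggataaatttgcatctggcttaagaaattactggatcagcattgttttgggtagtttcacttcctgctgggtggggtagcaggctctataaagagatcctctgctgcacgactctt
SPRR1B has 2 matches, beginning 141 and 111 bases before the start, and SPRR2A has 1, beginning 197 bases before it. The motif occurs in 6.57% of windows of this length.

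Of 16 tested S100 proteins, small calcium binders, 6 were higher and 0 lower, beside 6.6% and 14.6% of all genes. S100A7, psoriasin, was at 12990, 13810 and 12680 in Par and at 84980 and 90120 in Int (2.73 ± 0.04), with 0.814 in PC9 Par. S100A8, secreted by inflamed epithelium, was at 30040, 29150 and 27810 in Par and at 124700 and 144800 in Int (2.21 ± 0.06), with 1430 in PC9 Par. S100A9, its partner in calprotectin, was at 83010, 81980 and 80490 in Par and at 271500 and 300000 in Int (1.80 ± 0.05), with 19000 in PC9 Par. In all 3 both Int libraries lay above every Par library, and Par lay between Int and PC9 Par.

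Of 24 keratins, the intermediate filaments of epithelium, 5 were higher and 3 lower, beside 6.6% and 14.6% of all genes tested. The lower count was 1 under quantile normalisation, and the higher count 3 without Int library 2. KRT19, a keratin of simple epithelium, was at 43300, 43050 and 42800 in Par and at 611 and 454 in Int (-6.35 ± 0.10), with 51900 in PC9 Par. KRT7, KRT8 and KRT18 stayed within 2-fold. KRT14, a basal keratin, was at 1052, 1048 and 1078 in Par and at 1355 and 7755 in Int, with 2.04 in PC9 Par, and its log2 fold change of 1.61 ± 0.46 became 0.35, no longer called, without Int library 2. KRT5, its basal partner, was at 18690, 17240 and 17950 in Par and at 21140 and 55320 in Int, with 24.6 in PC9 Par, and was not called (0.93 ± 0.25), but was called without Int library 1, at 1.62.

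**Figure D4:**
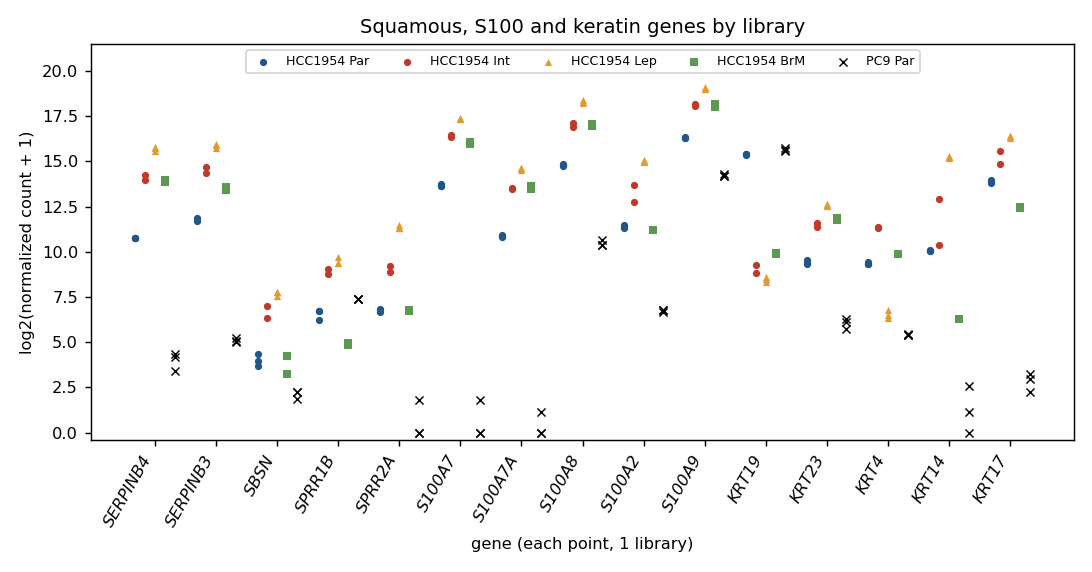
Normalised counts on a log2(value + 1) scale for named squamous, S100 and keratin genes in each HCC1954 library (circles for Par and Int, triangles for Lep, squares for BrM) and in the 3 PC9 Par libraries (crosses). SERPINB4 and S100A7 are higher in both Int libraries than in Par, KRT19 is lower, and the Int libraries of KRT14 lie far apart.

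Neighbours of ERBB2 on chromosome 17 moved as a block. PGAP3, ERBB2, MIR4728, MIEN1, GRB7 and IKZF3 were all higher in Int with a median of 1.29. ERBB2 was at 59590, 57750 and 57460 in Par and at 153300 and 152200 in Int (1.39 ± 0.03), with 1830 in PC9 Par. GRB7, an adaptor that binds the receptor, was at 11070, 10350 and 10540 in Par and at 24380 and 27340 in Int (1.28 ± 0.05), with 540 in PC9 Par. MIEN1, another gene of the block, was at 8294, 8037 and 7677 in Par and at 19620 and 19820 in Int (1.30 ± 0.04), with 1050 in PC9 Par. In all 3, Par lay between Int and PC9 Par. Reads of MIR4728 and of ERBB2 cannot be told apart. EGFR was below the fold threshold, at 9731, 9399 and 9849 in Par and at 7143 and 7476 in Int, with 9440 in PC9 Par. HBEGF, a ligand of EGFR, was at 281, 223 and 219 in Par and at 892 and 924 in Int (1.92 ± 0.09), with 578 in PC9 Par, so that Par lay below both.

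Of 35 tested NF-kB targets and cytokines 12 were higher and 3 lower, beside 6.6% and 14.6% of all genes. IL8, the neutrophil chemokine, was at 5749, 5537 and 5955 in Par and at 28050 and 30220 in Int (2.34 ± 0.05), with 1960 in PC9 Par. CCL5, a T cell chemokine, was at 193, 192 and 132 in Par and at 520 and 1263 in Int, with 1.72 in PC9 Par, with unequal Int libraries that both lay above Par. LIF, a cytokine of the interleukin-6 family, was at 996, 914 and 1023 in Par and at 3246 and 3453 in Int (1.78 ± 0.09), with 1870 in PC9 Par, lower in Par than in both. NFKBIA, the inhibitor that NF-kB induces, was just under the fold threshold (0.98 ± 0.04).

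CXCL1, CXCL2 and CXCL3, related neutrophil chemokines, went apart. CXCL1 was at 735, 771 and 771 in Par and at 1.05 and 1.05 in Int (-8.53 ± 0.27), with 322 in PC9 Par. CXCL2 was at 370, 357 and 393 in Par and at 943 and 1082 in Int (1.44 ± 0.08), with 60.4 in PC9 Par. CXCL3 was at 98.7, 93.6 and 93.6 in Par and at 328 and 483 in Int (2.05 ± 0.13), with 10.9 in PC9 Par. The first was nearly lost in Int, and the others were higher there. In Lep and BrM, CXCL1 had means of 7.36 and 2.34, and CXCL3 of 1150 and 1130. The genes are similar enough for reads to be shared.

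Their promoters are shown because 1 of the 3 genes was nearly lost while the others were higher. Each is the 250 bases before the RefSeq start (GRCh38.p14), with matches to GGGANNNNCC, a form of the NF-kB site, on either strand in capitals. CXCL1 lies at chr4:73869143-73869392 on the plus strand, CXCL2 at chr4:74099196-74099445 on the minus strand, and CXCL3 at chr4:74038690-74038939 on the minus strand.
CXCL1: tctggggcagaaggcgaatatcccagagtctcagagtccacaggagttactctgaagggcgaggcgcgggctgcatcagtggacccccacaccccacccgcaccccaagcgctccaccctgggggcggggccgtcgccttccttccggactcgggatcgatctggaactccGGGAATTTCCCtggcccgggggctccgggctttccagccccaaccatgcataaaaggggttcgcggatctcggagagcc
CXCL2: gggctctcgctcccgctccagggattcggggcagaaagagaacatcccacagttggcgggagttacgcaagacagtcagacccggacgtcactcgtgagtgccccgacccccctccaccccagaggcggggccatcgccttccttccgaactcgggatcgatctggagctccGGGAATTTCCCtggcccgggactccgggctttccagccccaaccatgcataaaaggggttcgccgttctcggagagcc
CXCL3: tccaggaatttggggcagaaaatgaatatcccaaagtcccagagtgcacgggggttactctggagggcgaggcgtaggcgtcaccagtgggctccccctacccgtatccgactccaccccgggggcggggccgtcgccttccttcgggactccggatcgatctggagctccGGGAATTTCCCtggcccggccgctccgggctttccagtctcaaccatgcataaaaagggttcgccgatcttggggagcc
All 3 windows hold 2 overlapping matches, the first of them beginning 79, 78 and 79 bases before the start. The motif occurs in 22.6% of windows of this length.

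Of 40 interferon-stimulated genes 8 were higher and 4 lower, beside 6.6% and 14.6% of all genes tested. The higher count was 16 without Int library 1 and 4 without Int library 2, and the lower count 2 without Int library 1. OASL, an oligoadenylate synthetase-like protein, was at 171, 159 and 156 in Par and at 504 and 1473 in Int (2.41 ± 0.32), with 30.4 in PC9 Par. RSAD2, viperin, was at 36.2, 40.3 and 29 in Par and at 117 and 228 in Int, with 0.409 in PC9 Par. MX1, an antiviral dynamin-like protein, was lower, at 304, 340 and 331 in Par and at 59.5 and 62.9 in Int, and was at 132 in PC9 Par. Of 23 antigen presentation genes 9 were higher and 0 lower, with class II genes among the largest changes. HLA-DRA was at 383, 367 and 340 in Par and at 816 and 1273 in Int (1.49 ± 0.13), and was listed at 0 in PC9 Par. CIITA, the class II activator, was at 159, 130 and 167 in Par and at 301 and 380 in Int (1.15 ± 0.13), with 1.27 in PC9 Par. CD74, the invariant chain, was at 75.7, 49.8 and 47.4 in Par and at 85.8 and 165 in Int (1.06 ± 0.24), with 7.92 in PC9 Par, and was no longer called without Int library 2, at 0.6.

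**Figure D5:**
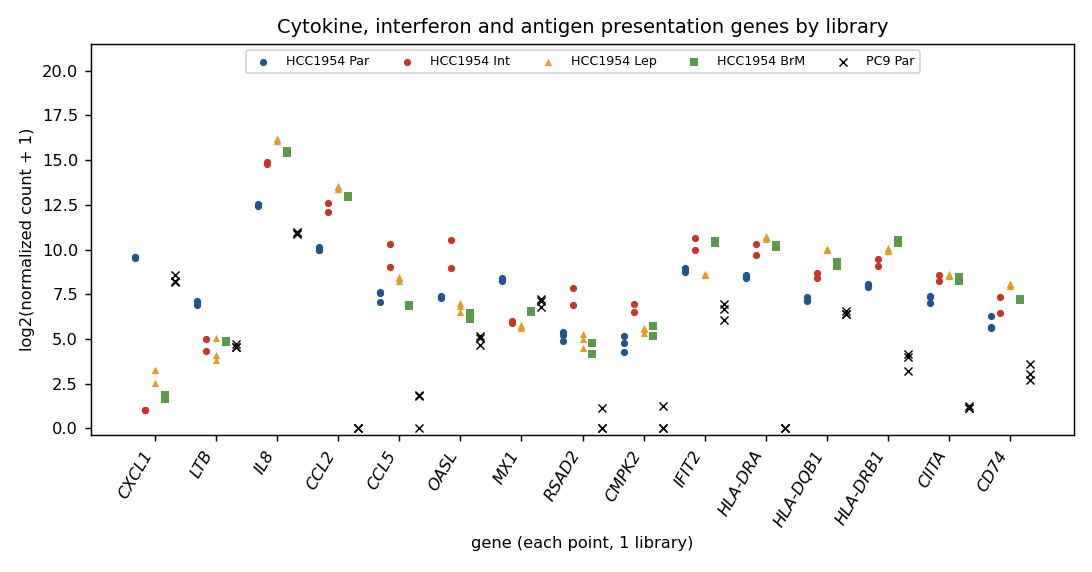
Normalised counts on a log2(value + 1) scale for named cytokine and immune genes in each HCC1954 library (circles for Par and Int, triangles for Lep, squares for BrM) and in the 3 PC9 Par libraries (crosses). CXCL1 is far lower in Int, Lep and BrM than in Par, and the 2 Int libraries are unequal for CCL5 and OASL.

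Of 22 complement genes 5 were higher and 8 lower, with 8 higher without Int library 1 and 3 without Int library 2. Over all genes tested, 6.6% were higher and 14.6% lower. CFD, factor D of the alternative pathway, was at 992, 918 and 945 in Par and at 132 and 132 in Int, with 234 in PC9 Par. CFI, which inactivates complement, was at 1089, 918 and 966 in Par and at 2799 and 2650 in Int (1.46 ± 0.07), and was listed at 0 in PC9 Par. On chromosome 1, IL19, IL20, IL24, FAIM3, PIGR and C1orf116 lie side by side and were all higher, by a median of 2.05. PIGR, which carries antibodies across epithelium, was at 2027, 2153 and 2131 in Par and at 20900 and 15270 in Int (3.09 ± 0.09), was listed at 0 in PC9 Par, and had a mean of 84000 in BrM.

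Of 24 collagens 11 were lower and 4 higher, beside 14.6% and 6.6% of all genes tested. Of 33 matrix proteases and inhibitors 10 were lower and 7 higher (median -0.09), with 2 higher without Int library 2, which also left 2 collagens higher. Of 21 integrins 3 were lower and 1 higher (median 0.13), with 4 higher under quantile normalisation and 2 without Int library 2. COL4A2, a basement membrane chain, was at 1106, 1082 and 1059 in Par and at 17.4 and 13.6 in Int, with 1110 in PC9 Par. COL4A1, its partner and neighbour, was at 2024, 2323 and 2165 in Par and at 144 and 206 in Int (-3.65 ± 0.16), with 1410 in PC9 Par. TIMP3, a matrix-bound protease inhibitor, was at 5627, 5295 and 5797 in Par and at 8.43 and 12.6 in Int, with 4470 in PC9 Par and 643 in Lep. LOX, which cross-links collagen, was higher, at 157, 153 and 137 in Par and at 765 and 999 in Int (2.55 ± 0.10), and was at 73.1 in PC9 Par. VIM, vimentin, was at 150, 142 and 165 in Par and at 229 and 499 in Int (1.15 ± 0.23), with 51.4 in PC9 Par, and was no longer called without Int library 2, at 0.58.

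Called genes also lay side by side. RefSeq (GRCh38.p14) placed 14896 tested genes (95.7%), used only for their order, and among them 25 runs of at least 4 neighbours were called higher and 39 lower. The longest was a run of 23 zinc finger genes on chromosome 19, from ZNF610 to ZNF331, with a median of -2.96. ZNF83 in that run was at 952, 1078 and 978 in Par and at 19 and 8.39 in Int, with 822 in PC9 Par. Of 471 tested genes named ZNF with a number, 100 were lower and 37 higher, beside 14.6% and 6.6% of all genes tested. Many ZNF genes code for DNA-binding repressors, and the family was singled out after its values were seen. A run of 12 neighbours on chromosome 12 that includes CDKN1B, an inhibitor of cyclin-dependent kinases, was lower with a median of -1.64. CDKN1B was at 2222, 2283 and 2349 in Par and at 738 and 774 in Int, with 1730 in PC9 Par. Chromosomes 12 and 19 had the highest shares of lower calls, 19.1% and 18.8%, and chromosomes 4 and X the highest shares of higher calls, 12.4% and 11%.

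The 2 Int libraries were not alike. Of 11291 genes with a mean of at least 100 over both, 41 differed by more than 2-fold, 37 of them higher in Int library 2 and 4 higher in library 1. Between any 2 Par libraries at most 1 gene did so. MMP13, a collagenase, stood at 2548 and 10660 in Int libraries 1 and 2, beside 1450, 1032 and 1040 in Par and means of 23300 in Lep and 16.9 in PC9 Par. COL17A1, the hemidesmosomal collagen, stood at 574 and 1991, beside 566, 476 and 464 in Par and means of 7990 in Lep and 13.7 in PC9 Par. The second Int library was the higher one in both, and Lep exceeded it in each. Whether the Int libraries come from separate cultures is not stated.

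Some calls were shared with the same contrast in the other human models. Of 14210 genes tested in both tables, 91 were called higher and 255 lower in both HCC1954 and PC9. That is 18.9% and 11.8% of the 482 and 2166 HCC1954 calls among these genes, and 10.7% and 23.5% of the PC9 calls. PC9 had 5.98% of these genes called higher and 7.65% lower, and HCC1954 had 3.39% and 15.2%. In opposite directions 341 genes were called, and the number expected from these shares was not worked out. In MDA-MB-231, with 4.24% higher and 2.52% lower, 82 and 33 of 14038 genes were shared. That is 12.3% and 1.82% of the 666 and 1810 HCC1954 calls among these genes, and 13.8% and 9.32% of the MDA-MB-231 calls. HCC1954 had 4.74% of these genes called higher and 12.9% lower. Lower calls were thus shared less often than the shares over all these genes, and higher calls more often. Opposite calls numbered 151 in MDA-MB-231. LRRN1 was called higher there too, from 147, 46.9 and 88.9 to 492 and 489. More of the genes described above were called in the same direction in another model, and only examples are given. S100A8 was also higher in PC9 Int (log2 fold change 2.72 ± 0.42), as were SERPINB4 (3.07 ± 0.48) and SERPINB3 (2.32 ± 0.37). NRCAM (-1.84 ± 0.11) and ZNF549 (-1.06 ± 0.15), near absent in HCC1954 Int, were also lower in PC9 Int. IL8 was also higher in MDA-MB-231 Int (4.52 ± 1.04). GCLM was also lower in PC9 Int (-1.07 ± 0.06), and NQO1 was also lower in MDA-MB-231 Int (-1.42 ± 0.32). CBR1 and GSTP1 stayed abundant in PC9 Int, at 1980 and 2190 and at 28600 and 26800.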

How the data were processed

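Polyadenylated RNA was sequenced from 500 ng of total RNA as 50-base read pairs for HCC1954 and PC9 and 75-base pairs for MDA-MB-231, per the labels' protocols. The values deposited by the authors are normalized counts (a signal of reads divided by a size factor), and the submitters' processing notes name FastQC 0.11.3, HTSeq 0.5.4, DESeq2 and hg19, with no aligner named in the sources used here. All values for HCC1954 (100%) were whole multiples of 1 step per library (tolerance 0.01). Whole reads were therefore recovered for edgeR 4.0.16 and DESeq2 1.42.0 as alternatives. For edgeR in PC9, values were divided by the smallest step of each library and rounded. The main test was limma 3.58.1 (trend, R 4.3.3) on log2(value + 1) over all 10 HCC1954 libraries, with Benjamini-Hochberg adjustment over all genes tested. It was also run on simulated data in which all groups had the same spread, which the Par and Int libraries here did not. Genes without a value of 10 in 2 libraries were left out. The comparison, the gene lists and the tests were chosen with earlier results of these data known, so the lists are described and not tested.

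Named genes are the 12 largest changes in each direction among called genes with separated groups and a mean of at least 100, up to 5 such members of each list, up to 2 uncalled but abundant members of a list, members of runs, and genes that identify the line. Others were picked after their values were seen, namely NRCAM, NR0B1, ZNF549, SERPINA3, NQO1, TXNRD1, GCLM, GCLC, NFE2L2, KEAP1, LIF, CXCL2, CXCL3, IGFBP5, PTGIS, MMP13 and COL17A1. Results for a few genes are not reported here. Promoters from RefSeq (GRCh38.p14) were found for 75.2% of tested genes, under 80%, so the planned comparison of CpG counts between gene sets is void. Deviations of same-numbered Int and Par libraries correlated at -0.05 and -0.03, so the numbers were not taken to pair libraries. Tables of the other models were tested separately, and the mouse LLC table was not used here.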

Additional observations from a re-analysis of the deposited data

Results flagged for a closer look

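Some of the most changed genes moved in opposite directions in every library of HCC1954 and of another model under the same contrast. The difference between the models was not tested, and in PC9 and MDA-MB-231 none of these genes was called. In PC9, GSTP1 changed by a log2 of 0.32, CBR1 by 0.25 and WFDC2 by 0.81, all of them far lower in HCC1954 Int than in the libraries labelled Par. In MDA-MB-231, WFDC2 changed by 1.23 and did not pass the adjusted p, TUSC3 changed by 0.57, and MOCS1, higher in HCC1954 Int, changed by -0.15.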

How the results depend on the processing

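Counts of called genes kept within 1.5 times of 1027 higher and 2279 lower under the other scalings, filters and pseudocounts and with edgeR (1001 and 2355) and DESeq2 (960 and 2251), except where given here. Quantile normalization gave 1968 higher and 54.4% of calls higher, and moved 21 list counts by over 1.5 times; those of lists described here stand beside their counts. A log2 fold change threshold of 2 gave 229 higher and 1161 lower (16.5% higher), and genes more than 2-fold outside the span between Int and PC9 Par were 15 higher and 477 lower (3.05% higher). Leaving out 1 library at a time gave 908 to 1066 higher and 2194 to 2272 lower. With adjusted p alone, PC9 shared 1540 higher and 1584 lower calls and MDA-MB-231 291 and 188. Under that rule 3937 genes were called in opposite directions in HCC1954 and PC9, and 664 in HCC1954 and MDA-MB-231. Genes near absent in Par numbered 4 at a limit of 5 and 21 at a limit of 20. Runs of at least 3 neighbours were 51 higher and 98 lower, and of at least 5 were 9 and 19.

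Replicate numbers did not pair the libraries, and the fit with the replicate number as a block gave 1018 higher and 2264 lower. The edgeR alternative was not run for MDA-MB-231, where whole reads were not recovered. Of 4014 results for the 251 named genes tested, 3952 kept their side of the threshold, 43 lost a call, 19 gained one and 0 changed direction; 16 genes lost their call under at least 1 alternative. With Int at 2 libraries, an Int mean rests on few cultures, and levels below 1.58 in Int are under 3 reads.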

Other observations

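Several groups not described above also held called genes. Of 25 NOTCH pathway genes 3 were higher and 6 lower in Int, beside 6.6% and 14.6% of all genes tested. Of 35 WNT ligands, receptors and inhibitors 2 were higher and 11 lower, with 6 higher under quantile normalization and 1 without Par library 1. SFRP1, a secreted WNT inhibitor, was at 1053, 1088 and 1024 in Par and at 0.527 and 2.1 in Int, with 1540 in PC9 Par. Of 43 semaphorins, ephrins and their receptors 7 were lower, close to the 14.6% of all genes, and 0 higher (2 under quantile normalization). PLXND1, a semaphorin receptor, was at 4715, 4576 and 4919 in Par and at 402 and 399 in Int (-3.56 ± 0.05), with 2520 in PC9 Par. Of 31 HOX genes, which set position along the body axis, 9 were higher and 10 lower, the latter count being 6 under quantile normalization. HOXB2 was at 539, 545 and 494 in Par and at 2014 and 2110 in Int, whereas HOXB6 in the same cluster was at 232, 248 and 269 in Par and at 1.05 and 0 in Int; their PC9 Par means were 3.43 and 152.

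Of 22 hypoxia response genes 4 were higher and 0 lower, beside 6.6% and 14.6% of all genes tested. ANGPTL4, a secreted inhibitor of lipoprotein lipase, was at 124, 62.8 and 119 in Par and at 716 and 473 in Int (2.57 ± 0.29), with 143 in PC9 Par. GDF15, a stress cytokine on the p53 list, was at 731, 626 and 672 in Par and at 3168 and 2892 in Int (2.16 ± 0.06), with 807 in PC9 Par. In ANGPTL4 and GDF15 the libraries labelled Par lay below both Int and PC9 Par. SLC7A11, the cystine importer, was at 14770, 16000 and 15450 in Par and at 2099 and 1671 in Int (-3.04 ± 0.07), with 15000 in PC9 Par. It was also lower in PC9 Int (-1.44 ± 0.08). Of 19 breast lineage factors and receptors 7 were higher and 1 lower (0 lower under quantile normalization). SOX2, a stem cell transcription factor, was higher, at 214, 190 and 231 in Par and at 765 and 812 in Int (1.90 ± 0.10), with 6.69 in PC9 Par. Of 31 cell cycle genes 3 were lower and 0 higher, under the 14.6% and 6.6% of all genes, with 1 lower under quantile normalization and 1 higher without Par library 1 or 2.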
